A study of Mus musculus with 6 samples.

Results

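Globin, haem synthesis and red cell membrane genes were followed in mouse leukaemia cells treated with panobinostat or vehicle. Red cells carry oxygen on haemoglobin, a tetramer of alpha and beta globin chains that each hold a haem, the iron porphyrin made in and around mitochondria. In erythroid precursors the genes for globins, for the erythroid form of aminolevulinate synthase, for iron uptake and for the spectrin and ankyrin membrane skeleton are switched on together, largely under the factors GATA1 and KLF1. The set was given by name as 36 genes, and 34 of them were matched by Entrez identifier among the 27179 genes of the count table. The Hbb-bt identifier and 1 other member of the globin group were not analysed here.

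Cells came from the spleens of C57BL/6 mice, were GFP-positive leukaemia cells by sort, with propidium iodide as the viability dye, and were labelled A/E9a;NRASG12D;Ifnar1-/-. They thus carried A/E9a, a form of the AML1-ETO fusion, with a mutant NRAS, and both groups lacked Ifnar1, a chain of the type I interferon receptor, so that the comparison holds for receptor-deficient leukaemia only. There were 3 libraries after panobinostat, which blocks histone deacetylases, and 3 after vehicle, each given for 3 days. The labels tag the genotype as a cell line, give no age, and name neither the clones nor the mice behind each library, so p-values measure the spread between these libraries, which may be technical.

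Library totals ran from 31989622 to 35962605 counts, and a count of 0 allows up to 3 counts, or 0.0834 to 0.0947 CPM (counts scaled by library size and TMM factor). This limit covers counting error only. Panobinostat library 1 and vehicle library 1 each stood apart from the other libraries of its group. Counts of calls and some of the estimates are given with and without them. Vehicle library 1 correlated at 0.955 with each of vehicle libraries 2 and 3, but at 0.983 and 0.989 with panobinostat libraries 2 and 3. Panobinostat library 1 correlated at 0.980 and 0.975 with panobinostat libraries 2 and 3. The cause was not tested. Leukaemia genes were high in every library: Kit, Gata2, Runx1t1 and Nras summed to 2249, 1701 and 1577 CPM in panobinostat libraries 1, 2 and 3, and to 1781, 1527 and 1506 CPM in vehicle libraries 1, 2 and 3. Markers of B cells, T cells, granulocytes and monocytes were low. The 8 B cell markers summed to 4.72 to 22.1 CPM in panobinostat and 21.6 to 58.0 CPM in vehicle libraries. The 8 T cell markers summed to 2.11 to 9.96 CPM in panobinostat and 8.70 to 11.6 CPM in vehicle libraries. The 8 granulocyte and monocyte markers summed to at most 6.43 CPM in panobinostat and 9.63 CPM in vehicle libraries. Mast cell and basophil markers were not low, with 8 summing to 904 to 2287 CPM in panobinostat and 748 to 890 CPM in vehicle libraries. The 8 megakaryocyte markers summed to 16.6 to 111 CPM in panobinostat and 7.48 to 174 CPM in vehicle libraries. In bulk RNA of this kind, fewer erythroid cells and less erythroid RNA per cell cannot be told apart.

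The promoters of 5 members are shown because these genes stand for the patterns described here: alpha globin, adult beta globin, embryonic beta-like globin, erythroid haem synthesis and a surface antigen. Each line gives the 250 bases before the RefSeq transcription start in GRCm38.p6, 5′ to 3′ on the gene's strand. Capitals mark 4 motifs on either strand. The first is the GATA word, spelled GATA after A or T and before A or G. The second is CACCC, the core of the box that KLF1 binds. The third is CCAAT, and the fourth is TATAAA.

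Hba-a1, chr11:32283422-32283671, plus strand: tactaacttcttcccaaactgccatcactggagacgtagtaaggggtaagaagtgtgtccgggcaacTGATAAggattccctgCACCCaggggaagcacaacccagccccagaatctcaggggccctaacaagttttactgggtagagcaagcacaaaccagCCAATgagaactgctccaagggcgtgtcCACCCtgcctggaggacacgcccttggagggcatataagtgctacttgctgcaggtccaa
Hbb-bs, chr7:103827929-103828178, minus strand: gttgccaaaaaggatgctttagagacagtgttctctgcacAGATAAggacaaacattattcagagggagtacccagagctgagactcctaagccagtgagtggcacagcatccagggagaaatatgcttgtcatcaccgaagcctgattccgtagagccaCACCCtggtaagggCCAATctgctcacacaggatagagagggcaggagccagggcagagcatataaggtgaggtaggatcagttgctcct
Hbb-y, chr7:103853208-103853457, minus strand: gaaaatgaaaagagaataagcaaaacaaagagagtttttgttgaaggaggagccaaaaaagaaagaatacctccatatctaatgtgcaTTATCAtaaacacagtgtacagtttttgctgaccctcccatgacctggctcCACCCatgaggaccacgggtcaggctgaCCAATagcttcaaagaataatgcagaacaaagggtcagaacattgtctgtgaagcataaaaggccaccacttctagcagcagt
Alas2, chrX:150547167-150547416, plus strand: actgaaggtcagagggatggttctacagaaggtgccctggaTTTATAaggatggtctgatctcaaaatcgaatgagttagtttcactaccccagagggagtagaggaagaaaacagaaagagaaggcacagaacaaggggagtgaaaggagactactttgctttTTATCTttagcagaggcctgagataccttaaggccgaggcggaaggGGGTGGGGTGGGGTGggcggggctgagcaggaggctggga
Kel, chr6:41704326-41704575, minus strand: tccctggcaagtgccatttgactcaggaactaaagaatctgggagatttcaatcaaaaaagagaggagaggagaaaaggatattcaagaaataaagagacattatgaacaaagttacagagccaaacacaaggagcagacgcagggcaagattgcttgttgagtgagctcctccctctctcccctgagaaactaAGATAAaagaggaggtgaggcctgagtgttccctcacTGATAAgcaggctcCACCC

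Of the 36 members, 26 had a promoter in the RefSeq table, Hbb-bt among them, in 34 windows of 300 bases that run from 250 before to 50 after the start. A GATA word stood in 55.9% of these windows, against 29.8% of all 32851 windows. CACCC stood in 76.5% of member windows and 57.5% of all windows, CCAAT in 50% and 37.4%, and TATAAA in 14.7% and 13.6%. In the printed promoters of Hba-a1, Hbb-bs and Hbb-y a CCAAT lay 76 to 88 bases before the start, with a GATA word further upstream. The window of Hba-a2 had its CCAAT at 91 bases and a GATA word upstream of it, whereas that of Hbb-bt had CCAAT at 80, 75 and 36 bases and 0 GATA words. These matches describe letters only. A window counts once for a motif however many copies it holds, and no motif contains another.

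No member was called higher or lower with panobinostat. All 34 passed the filter on low counts, and 0 had an adjusted p under 0.05 in edgeR's quasi-likelihood test over all genes, against a background of 0.000% higher and 0.000% lower of 13207 genes tested. An unadjusted p under 0.05 was reached by 0 members, against 2.28% of all genes. The groups overlapped for every one of the 34 members, whereas they did not overlap for 7.43% of all genes, 3.79% with panobinostat higher and 3.63% lower. DESeq2 called 0 of the 32 members to which it gave an adjusted p (Hbb-y and Trim58 had none), against 0.0534% higher and 0.0152% lower of all genes. Estimates were below 0 for 28 members, against 49.8% of all genes, and above 0 for 6, against 50.2%, with a median log2 fold change of -0.21 against 0.00 over all genes. That lean rested on panobinostat library 1: without it the median was 0.03, with 16 of 34 estimates below 0.

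Most members varied within groups more than the middle gene did, 9 of them beyond the 90th percentile of all genes and others, such as Fech and Car2, close to the middle. Their biological coefficient of variation, edgeR's measure of spread between libraries of a group, had a median of 0.326, against 0.221 over all genes, and lay above that of the middle gene for 31 of 34. Panobinostat library 1 was the lowest library for 27 of 34 members, or 79.4%, against 20.5% of all genes, with Hbb-y and Hbb-bh1 tied at 0 counts with vehicle libraries. In 12 members it lay at least 2-fold under every other library, as did 2.51% of all genes. The highest library was panobinostat library 1 for 2 members (Alas1 and Car1), against 21.3% of all genes, and panobinostat library 2 or 3 for 11, against 17.9%. It was vehicle library 1 for 6 members, the 5 globins and Trim58, against 22.4% of all genes, and vehicle library 2 or 3 for 15, against 38.4%. Panobinostat libraries 2 and 3 both lay above vehicle libraries 2 and 3 for 12 members, against 29.7% of all genes, and both below for 11, against 29.1%.

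**Figure D1:**
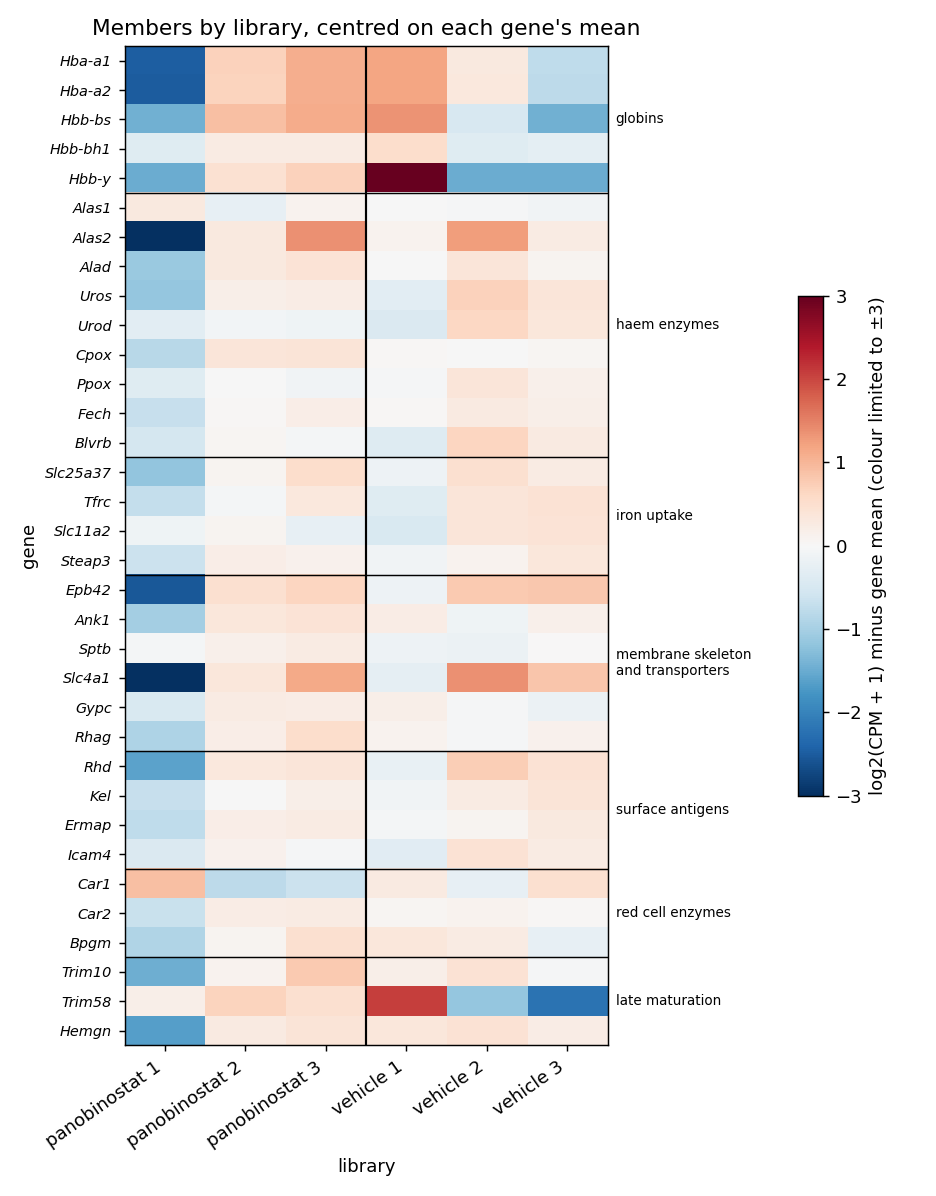
Each row is a member and each column a library, panobinostat on the left and vehicle on the right. Colour gives log2(CPM + 1) minus the gene's mean over the 6 libraries, limited to 3 on either side. Panobinostat library 1 is the lowest library for 27 of 34 genes, counting Hbb-y and Hbb-bh1, where it is tied with vehicle libraries at 0 counts. Vehicle library 1 is the highest for each of the 5 globins.

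Adult alpha globin was the most abundant product of the set per length, at 11592 CPM per kilobase of exon for Hba-a2 and 6417 for Hba-a1. Hba-a1 (Entrez gene 15122, chr11:32283672-32284486) stood at 605, 5399 and 7120.3 CPM in panobinostat libraries 1, 2 and 3, and at 7686, 4133 and 1970.3 CPM in vehicle libraries 1, 2 and 3. Panobinostat library 1 was the lowest of all and vehicle library 1 the highest, so the ranges overlapped over most of their length. Means were 4375 ± 3376 CPM with panobinostat and 4597 ± 2886 CPM with vehicle (SD, n = 3), a log2 fold change of -0.07 (SE 0.878, edgeR adjusted p 0.998). Hba-a2 (Entrez gene 110257, chr11:32296492-32297310) stood at 856, 7644 and 10303 CPM in panobinostat and 10999, 5938 and 2793 CPM in vehicle libraries, with a log2 fold change of -0.07 (SE 0.883, edgeR adjusted p 0.998). The copies are near-identical, so how reads were split between them is uncertain; their count ratio was 1.42 to 1.45 in all 6 libraries. Without panobinostat library 1 the estimates of Hba-a1 and Hba-a2 were 0.45 and 0.45, and without vehicle library 1 they were 0.51 and 0.51, on the opposite side of 0 and still not called.

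Adult beta globin had the same libraries at its top. Hbb-bs (Entrez gene 100503605, chr7:103826523-103827928) stood at 399, 2049 and 2368 CPM in panobinostat libraries 1, 2 and 3, and at 2789, 779 and 398 CPM in vehicle libraries 1, 2 and 3. Panobinostat library 1 and vehicle library 3 shared the lowest level. Its log2 fold change was 0.28 (SE 0.883, edgeR adjusted p 0.998). A second adult beta row, Hbb-b1 (Entrez gene 15129), is not on the list of members and was named after its values were seen. Whether this row holds reads of the member Hbb-bt was not settled. Hbb-b1 stood at 1628, 8228 and 10302 CPM in panobinostat and 12367, 3544 and 1774.5 CPM in vehicle libraries. Its counts were 4.01 to 4.55 times those of Hbb-bs, and reads of these similar genes may be split between the rows.

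The balance of alpha to beta globin differed between libraries. Alpha counts (Hba-a1 with Hba-a2) over beta counts (Hbb-bs with Hbb-b1), not corrected for length, were 0.720, 1.27 and 1.38 in panobinostat libraries 1, 2 and 3, and 1.23, 2.33 and 2.19 in vehicle libraries 1, 2 and 3. Vehicle libraries 2 and 3 stood above the other 4, and vehicle library 1 lay within the panobinostat range. Globin rows together took 0.350, 2.31 and 2.99% of counts in panobinostat libraries 1, 2 and 3, and 3.36, 1.45 and 0.709% in vehicle libraries 1, 2 and 3. The exact 95% binomial interval, which covers counting error only, was 0.348 to 0.352% for panobinostat library 1 and 3.36 to 3.37% for vehicle library 1.

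Embryonic beta-like globins, which mice make in the yolk sac, were counted in 3 libraries and nearly absent from the rest. Hbb-y (Entrez gene 15135, chr7:103851754-103853207) had 0, 102 and 118 counts in panobinostat libraries 1, 2 and 3, and 845, 0 and 0 in vehicle libraries 1, 2 and 3. Hbb-bh1 (Entrez gene 15132, chr7:103841638-103843162) had 0, 19 and 18 counts in panobinostat libraries and 27, 0 and 2 in vehicle libraries. Both were thus present in vehicle library 1 and in panobinostat libraries 2 and 3. Embryonic counts were 0.0331 and 0.0318% of beta-like counts in panobinostat libraries 2 and 3 and 0.181% in vehicle library 1. Other rows of the globin clusters were likewise highest in these 3 libraries. Hbq1b, a theta-like globin of the alpha cluster, stood at 0.722, 12.2 and 25.0 CPM in panobinostat and 56.9, 2.87 and 1.91 CPM in vehicle libraries, and Hbb-bh2, a beta-like row, at 0.0556, 1.55 and 2.79 CPM in panobinostat and 1.89, 0.258 and 0.145 CPM in vehicle libraries.

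**Figure D2:**
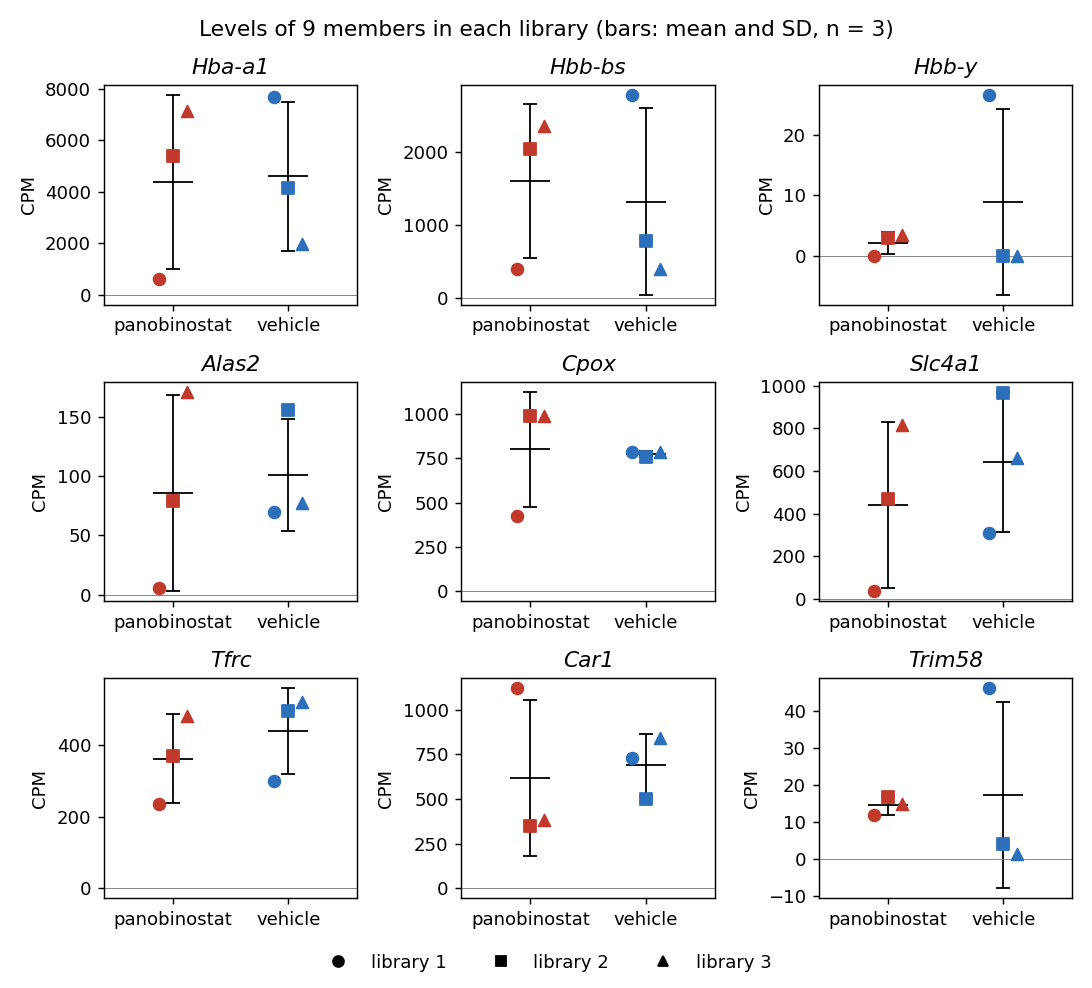
Each panel plots a member's CPM in panobinostat libraries (red, left) and vehicle libraries (blue, right). The marker shape gives the library number and the bars the mean and SD of 3. Hbb-y is highest in vehicle library 1 at 26.7 CPM, and Alas2 and Slc4a1 are lowest in panobinostat library 1 at 5.92 and 35.1 CPM.

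Haem synthesis starts with aminolevulinate synthase, of which Alas1 is the form of most tissues and Alas2 the erythroid form. Alas2 (Entrez gene 11656, chrX:150547417-150570622) stood at 5.92, 79.3 and 171 CPM in panobinostat libraries 1, 2 and 3, and at 69.8, 155 and 77.4 CPM in vehicle libraries 1, 2 and 3. The highest and lowest of all 6 values thus fell within the panobinostat group, and the log2 fold change was -0.24 (SE 0.994, edgeR adjusted p 0.998). Alas1 moved little, at 17.9, 12.02 and 15.7 CPM in panobinostat and 14.5, 14.2 and 13.4 CPM in vehicle libraries, and its highest value was in panobinostat library 1. The count ratio of Alas2 to Alas1 was 0.331, 6.59 and 10.9 in panobinostat libraries and 4.81, 10.96 and 5.76 in vehicle libraries. Panobinostat library 1 was the only library of the 6 in which Alas1 had more counts.

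Cpox, coproporphyrinogen oxidase (Entrez gene 12892, chr16:58670208-58680391), stood at 427, 987 and 989.7 CPM in panobinostat and 784, 759 and 787 CPM in vehicle libraries. The vehicle libraries agreed closely while the panobinostat libraries fell on both sides of them. Means were 801 ± 324 CPM with panobinostat and 776 ± 15.5 CPM with vehicle (SD, n = 3), with a log2 fold change of 0.05 (SE 0.318, edgeR adjusted p 0.998). Fech, ferrochelatase, which puts iron into the porphyrin, stood at 280.2, 466 and 518 CPM in panobinostat and 464, 545 and 511 CPM in vehicle libraries, with a log2 fold change of -0.27 (SE 0.234, edgeR adjusted p 0.998). The groups overlapped for each of the other enzymes too. Alad, the porphobilinogen synthase, averaged 105 ± 50.2 CPM with panobinostat and 116 ± 16.1 CPM with vehicle, Uros, uroporphyrinogen III synthase, 61.6 ± 27.6 CPM with panobinostat and 83.6 ± 28.4 CPM with vehicle, and Urod, the decarboxylase after it, 137 ± 11.9 CPM with panobinostat and 183 ± 63.1 CPM with vehicle (SD, n = 3 each). Ppox, protoporphyrinogen oxidase, had the smallest p of any member (0.0727 unadjusted, edgeR adjusted p 0.998), at 139.8, 181 and 168 CPM in panobinostat and 176, 235 and 201 CPM in vehicle libraries. Blvrb, a biliverdin reductase on the haem breakdown path, averaged 304 ± 61.2 CPM with panobinostat and 397 ± 135 CPM with vehicle.

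Iron reaches these enzymes through the transferrin receptor Tfrc, the endosomal reductase Steap3, the transporter Slc11a2 and the mitochondrial importer Slc25a37 (mitoferrin). Tfrc (Entrez gene 22042, chr16:32608896-32632794) stood at 235, 371 and 484 CPM in panobinostat and 301, 496 and 522 CPM in vehicle libraries. The library numbered 1 was the lowest of each group, and the log2 fold change was -0.28 (SE 0.319, edgeR adjusted p 0.998). Slc25a37 (chr14:69241848-69285544) stood at 187, 450.4 and 610.2 CPM in panobinostat and 384, 589.6 and 507 CPM in vehicle libraries, with a log2 fold change of -0.25 (SE 0.420, edgeR adjusted p 0.998). The groups overlapped, and panobinostat held both the lowest and the highest value. Steap3 averaged 126 ± 36.3 CPM with panobinostat and 144 ± 23.1 CPM with vehicle, and Slc11a2 203 ± 23.6 CPM with panobinostat and 242 ± 72.4 CPM with vehicle (SD, n = 3 each). Vehicle library 1 was below both other vehicle libraries for each of the 4 iron genes, by a factor of 0.558 to 0.787 against their mean, whereas it was above them for each of the 5 globins.

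The membrane genes split by how strongly panobinostat library 1 lacked them. Slc4a1, the band 3 anion exchanger that anchors the skeleton (Entrez gene 20533, chr11:102348820-102365281), stood at 35.1, 469.6 and 814 CPM in panobinostat and 307, 964 and 660.4 CPM in vehicle libraries. Panobinostat library 1 had 0.114 times the level of the next lowest library, and the log2 fold change was -0.55 (SE 0.983, edgeR adjusted p 0.998). Epb42, protein 4.2, which binds band 3, stood at 12.4, 107 and 121 CPM in panobinostat and 69.2, 133 and 135 CPM in vehicle libraries, and its panobinostat library 1 was at 0.180 times the next lowest. Sptb, beta spectrin (Entrez gene 20741, chr12:76580488-76710547), showed no such gap, at 548, 637 and 682 CPM in panobinostat and 513, 507 and 581 CPM in vehicle libraries. Its log2 fold change was 0.22 (SE 0.125, edgeR adjusted p 0.998), and its spread between libraries was the lowest of the set. Ank1, the ankyrin that ties spectrin to band 3, stood at 263, 679 and 714 CPM in panobinostat and 623, 489 and 590.0 CPM in vehicle libraries, with a log2 fold change of -0.04 (SE 0.370, edgeR adjusted p 0.998). Gypc, glycophorin C, averaged 308 ± 78.4 CPM with panobinostat and 299.7 ± 36.7 CPM with vehicle, and Rhag, the Rh-associated glycoprotein, 377 ± 170.1 CPM with panobinostat and 378 ± 21.1 CPM with vehicle (SD, n = 3 each).

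Each surface antigen had its highest level in vehicle library 2 or 3, though for Ermap vehicle library 2 lay below panobinostat libraries 2 and 3. Ermap, the Scianna blood group protein (chr4:119175457-119190013), stood at 485, 955 and 975 CPM in panobinostat and 800.0, 882 and 1019 CPM in vehicle libraries, with a log2 fold change of -0.16 (SE 0.280, edgeR adjusted p 0.998). Kel, the Kell antigen, an endopeptidase (chr6:41686329-41704334), stood at 258, 420.1 and 474 CPM in panobinostat and 391.8, 497 and 553 CPM in vehicle libraries, with a log2 fold change of -0.32 (SE 0.252, edgeR adjusted p 0.998). For each of the 4 antigens panobinostat library 1 was the lowest. Rhd, the Rh antigen, averaged 152 ± 87.0 CPM with panobinostat and 206 ± 65.4 CPM with vehicle, and Icam4, the Landsteiner-Wiener adhesion antigen, 57.6 ± 10.9 CPM with panobinostat and 68.9 ± 18.3 CPM with vehicle (SD, n = 3 each).

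Among red cell enzymes, the carbonic anhydrases went in opposite directions across libraries. Car2 (Entrez gene 12349, chr3:14886269-14900770) stood at 1519, 2801 and 2835 CPM in panobinostat and 2492, 2589 and 2451 CPM in vehicle libraries, with a log2 fold change of -0.07 (SE 0.246, edgeR adjusted p 0.998). Car1 (Entrez gene 12346, chr3:14766214-14808365) stood at 1119, 349 and 381 CPM in panobinostat and 726, 502 and 842 CPM in vehicle libraries, with a log2 fold change of -0.16 (SE 0.488, edgeR adjusted p 0.998). Panobinostat library 1 was thus the lowest for Car2 and the highest for Car1. Bpgm, which makes the haemoglobin effector 2,3-bisphosphoglycerate, averaged 43.2 ± 19.3 CPM with panobinostat and 47.7 ± 9.69 CPM with vehicle (SD, n = 3).

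Of the late maturation genes, Hemgn, a nuclear protein of blood progenitors, stood at 37.0, 142 and 154 CPM in panobinostat and 149, 159 and 137 CPM in vehicle libraries, with a log2 fold change of -0.42 (SE 0.491, edgeR adjusted p 0.998). Trim10, a ring finger protein of terminal erythroid cells, stood at 13.0, 40.7 and 65.4 CPM in panobinostat and 42.4, 50.8 and 36.7 CPM in vehicle libraries, with a log2 fold change of -0.13 (SE 0.529, edgeR adjusted p 0.998). Trim58, a ubiquitin ligase linked to loss of the nucleus from erythroblasts, was unlike both. Trim58 stood at 11.8, 16.8 and 14.8 CPM in panobinostat and 46.1, 4.01 and 1.42 CPM in vehicle libraries, so that vehicle held both extremes and the panobinostat libraries lay close together. Its log2 fold change was -0.25 (SE 1.15, edgeR adjusted p 0.998), and without vehicle library 1 it was 2.40 (SE 0.469, edgeR adjusted p 0.0701).

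Across the 6 libraries the members fell along more than a single order. Over log2(CPM + 1), the mean of Hba-a1, Hba-a2 and Hbb-bs had a Pearson r of 0.976 with Gypc and 0.940 with Bpgm, but of 0.647 with Slc4a1 and 0.316 with Tfrc. Slc4a1 had an r of 0.995 with Slc25a37, 0.992 with Fech, 0.990 with Rhd, 0.989 with Epb42 and 0.981 with Alas2. Car1 had a negative r with both, at -0.760 and -0.693. These values describe 6 libraries of 2 groups that share the extremes named here. For Gata1, which drives erythroid genes, the levels were 199, 300.3 and 316 CPM in panobinostat and 328, 271 and 234 CPM in vehicle libraries. Gata1 put the libraries in the same order as Hba-a1 (r 0.987), over a narrower range. Klf1 stood at 171, 324 and 288 CPM in panobinostat and 270.0, 313 and 257 CPM in vehicle libraries.

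Summed markers of related lineages also differed between libraries. The 8 megakaryocyte markers summed to 16.6, 80.4 and 111 CPM in panobinostat libraries 1, 2 and 3, and to 174, 7.48 and 7.597 CPM in vehicle libraries 1, 2 and 3. Itga2b was the most abundant of them in all 6 libraries, and Gp6 was at or near 0 throughout. The sum was thus high in the same 3 libraries as embryonic globin and Hbb-bs. Single markers did not all follow the sum. Of the 8, 4 passed the filter on low counts, and 1 each was highest in panobinostat libraries 1, 2 and 3 and in vehicle library 1. The 8 mast cell and basophil markers summed to 2287, 937 and 904 CPM in panobinostat and 748, 890.3 and 860.2 CPM in vehicle libraries, and were highest in panobinostat library 1, where most members were lowest. The part of either lineage in the members' levels was not tested.

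**Figure D3:**
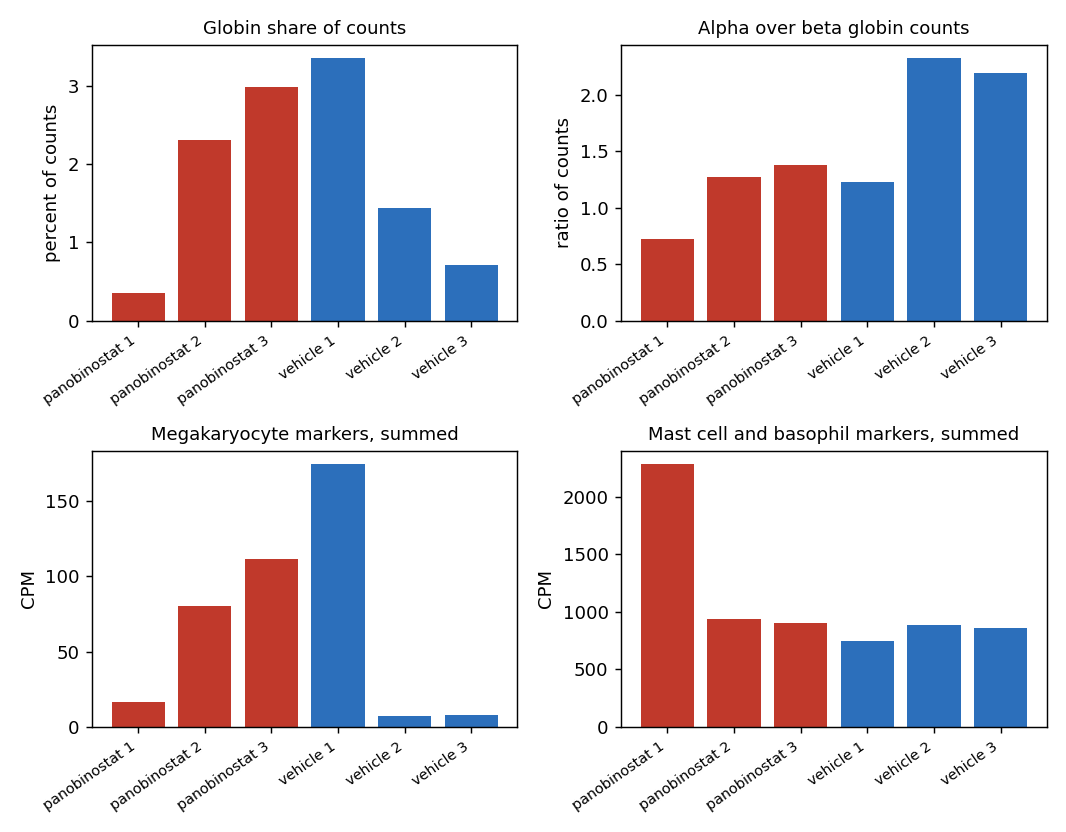
Bars give 4 values for each library, with panobinostat (red) left of vehicle (blue): the globin share of counts in percent, the ratio of alpha to beta globin counts, and the summed CPM of megakaryocyte and of mast cell and basophil markers. Vehicle library 1 has the highest globin share, 3.36%, and the highest megakaryocyte sum, 174 CPM, while panobinostat library 1 has the lowest globin share and the highest mast cell sum, 2287 CPM.

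Leaving out both libraries numbered 1 changed the comparison, in an alternative chosen after the data were seen. Vehicle library 1 was the highest library for the 5 globins and Trim58, and panobinostat library 1 the lowest of its group for each of them. Leaving both out therefore raises these estimates, and the adjusted p-values take no account of that choice. With 2 libraries a group, edgeR called 5 of 34 members higher, or 14.7% against 7.36% of all genes, and 1 lower, or 2.94% against 4.65%. Higher were Hbb-bs (log2 fold change 1.90, SE 0.348, edgeR adjusted p 0.0442), Trim58 (2.53, SE 0.472, edgeR adjusted p 0.0326) and Cpox (0.35, SE 0.0817, edgeR adjusted p 0.0451), with Hbb-y and Hbb-bh1. Hbb-y averaged 3.18 CPM in panobinostat libraries 2 and 3, at least 36.8-fold higher than the floor of 3 counts a library in vehicle libraries 2 and 3, with an edgeR adjusted p of 0.00309. Urod was lower, with a log2 fold change of -0.60 (SE 0.107, edgeR adjusted p 0.0185). Vehicle library 1 was the lowest of all libraries for Urod, at 114 CPM, against 238 and 197 CPM in vehicle libraries 2 and 3. Leaving vehicle library 1 out therefore lowers the Urod estimate, which was -0.41 with all 6 libraries. Hba-a1 and Hba-a2 had estimates of 1.03 and 1.03 (edgeR adjusted p 0.193 and 0.205) and were not called. Alas2, Slc4a1, Epb42 and Hemgn, all low in panobinostat library 1, had estimates of 0.10, -0.35, -0.25 and -0.01 and were not called. Without vehicle library 1 alone, 0 members were called, against 268 of 13369 genes higher and 56 lower, the lower ones being 0.419%, with a smallest edgeR adjusted p of 0.0599 for Urod. The call of Hbb-bs, Cpox and the others needs both libraries left out, since 0 members were called without panobinostat library 1 alone as well, and vehicle library 1 itself had more Hbb-y, Hbb-bs and Trim58 than any panobinostat library.

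**Figure D4:**
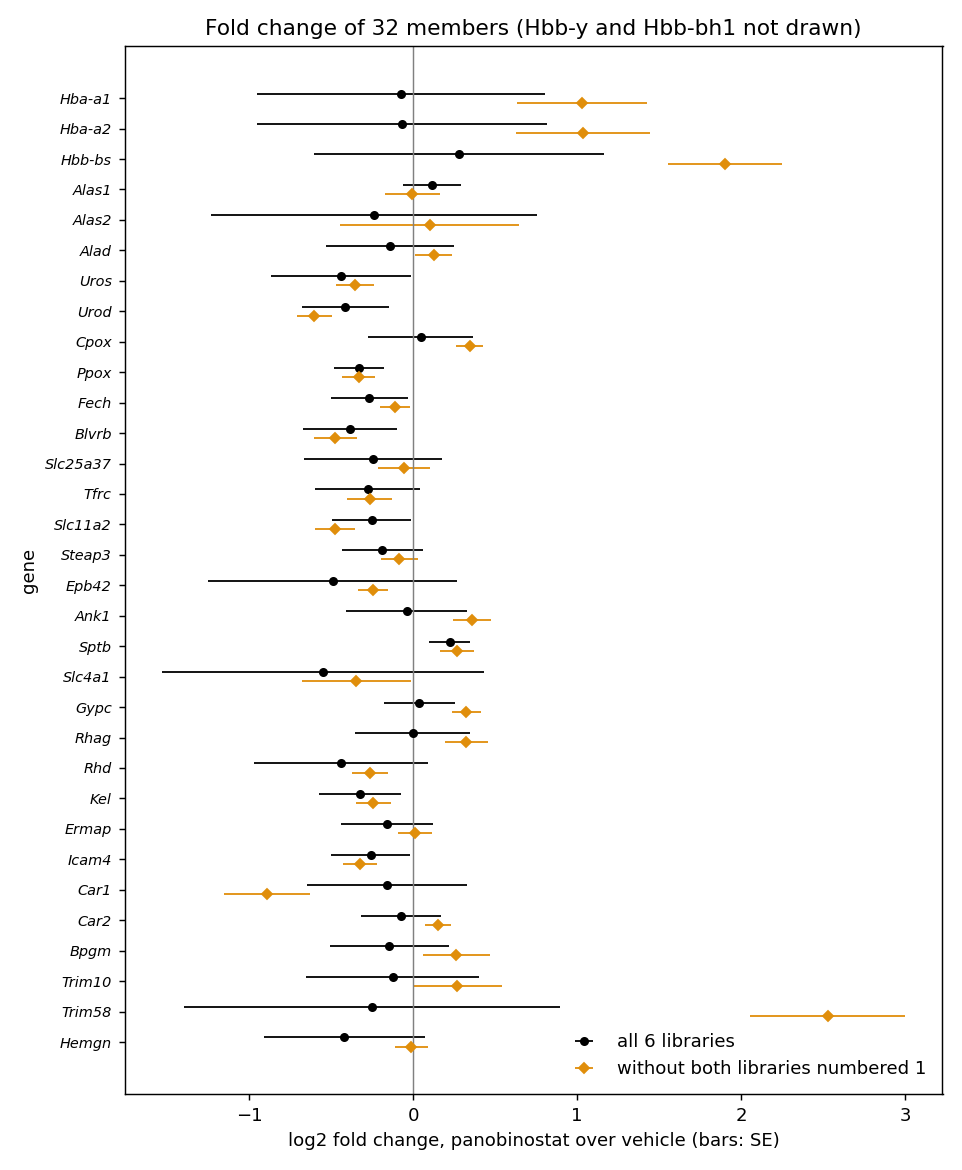
Points give the log2 fold change of 32 members, panobinostat over vehicle, with bars of 1 SE on either side. Black circles are from all 6 libraries and orange diamonds from the 4 left without both libraries numbered 1. Hbb-y and Hbb-bh1 are not drawn because their vehicle counts in the second fit are at or under the floor. With 6 libraries no estimate passes the test, and without the libraries numbered 1 Hbb-bs and Trim58 lie furthest to the right, at 1.90 and 2.53.

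Other genes of the pathway were not called either. Of 65 listed, 63 were tested, and 0 were called in either direction in edgeR's test, with 18 estimates above and 45 below 0, against 49.8% of all genes below 0. Panobinostat library 1 was the lowest library for 43 of the 63, against 20.5% of all genes. Without vehicle library 1, 29 estimates were above and 34 below 0, and without both libraries numbered 1 the median log2 fold change was 0.06, against -0.11 with all 6. In the haem and iron-sulfur list, 13 of 15 estimates were below 0. Hebp1, a haem-binding protein, stood at 33.3 ± 13.9 CPM with panobinostat and 63.8 ± 17.2 CPM with vehicle (SD, n = 3; log2 fold change -0.94, SE 0.338, edgeR adjusted p 0.998), and Abcb6, a porphyrin transporter, at 55.3 ± 15.4 CPM with panobinostat and 78.3 ± 11.6 CPM with vehicle. In the iron handling list, 8 of 12 were below 0, with Blvra, a biliverdin reductase, at 33.6 ± 3.47 CPM with panobinostat and 46.9 ± 19.7 CPM with vehicle and Fth1, ferritin heavy chain, at 1131 ± 116 CPM with panobinostat and 1448 ± 501 CPM with vehicle. In the skeleton and membrane list, 12 of 19 were below 0, with Stom, stomatin, at 57.4 ± 42.04 CPM with panobinostat and 138 ± 58.3 CPM with vehicle. Among 14 maturation and antioxidant genes 10 were below 0, with Prdx2, a peroxiredoxin, at 571 ± 146 CPM with panobinostat and 747 ± 229.8 CPM with vehicle and Ulk1, an autophagy kinase, at 119 ± 20.7 CPM with panobinostat and 152 ± 49.2 CPM with vehicle.

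Without both libraries numbered 1, 9 of 62 of these genes were called higher, against 7.36% of all genes, and 6 lower, against 4.65%, and those named here were chosen after their values were seen. Among those higher were the globins Hbq1a, Hbq1b and Hbb-bh2, the skeleton genes Add2, Add3 and Tmod1, and the factors Tal1 and Gfi1b. Among those lower were Abcg2, Abcb6, Fth1, Blvra and Stom. Without vehicle library 1 alone, Abcg2 and Blvra were called lower (edgeR adjusted p 0.0441 and 0.0402), of 63 tested, against 0.419% of all genes. Called higher were 0, against 268 of all 13369 genes. Vehicle library 1 was the lowest of all libraries for both Abcg2 and Blvra, at 138 and 24.5 CPM. Leaving vehicle library 1 out therefore lowers these estimates, from -0.25 to -0.53 for Abcg2 and from -0.48 to -0.80 for Blvra.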

How the data were processed

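RNA of sorted leukaemia cells was sequenced from TruSeq mRNA libraries, per the labels' protocols. The deposited table holds raw counts of reads per Entrez gene, whole numbers that the authors left unscaled. Per the submitters' processing notes, reads were handled with HISAT2 2.1.0 against mm10, cutadapt 2.1 and Subread 2.0.0 with featureCounts; bcl2fastq 2.17.1.14, FastQC 0.11.6 and limma are also named. Which annotation and strand option were used is not given in the sources used here, so overlapping genes and near-identical copies are uncertain. Columns name a group and a number that matches no label, so libraries are named by group and column number.

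Of 27179 identifiers, 25275 had a symbol in RefSeq's GRCm38.p6 table, the assembly of mm10; promoters are RefSeq's. Counts were tested in edgeR 4.0.16 (R 4.3.3), with filterByExpr at 10 counts, TMM factors, the robust quasi-likelihood F-test, two-sided, Benjamini-Hochberg over 13207 genes, threshold 0.05. SE is the fold change over the root of F. CPM per kilobase uses the union of exons in GENCODE M21. Named genes were all members, the 2 most abundant of each role with full statistics, and the 2 smallest p of each pathway list, of which some are not reported here; members and lists were chosen with earlier results of these data known. The test was tried on counts simulated with the same spread for all genes. That spread was narrower than that of the globins, so the trial does not cover such members. DESeq2 1.42.0, limma-voom (limma 3.58.1) and other settings were alternatives.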

Additional observations from a re-analysis of the deposited data

How the results depend on the processing

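With 3 libraries a group and spreads this wide, modest changes of globins could not be seen. Over all genes edgeR called 0 with all 6 libraries (301 at an unadjusted p under 0.05), 324 without vehicle library 1 and 1590 without both libraries numbered 1, and DESeq2 called 9 with all 6; leaving out each library in turn gave 0 to 324. Members called were 0 under every other alternative run (2 had no adjusted p in DESeq2) and 6 without both libraries numbered 1. Other pathway genes called ranged from 0 to 2 with each library left out, the 2 being without vehicle library 1, and came to 15 without both libraries numbered 1. RLE, upper-quartile and plain library-size scaling, and library sizes without globins, moved the members' median only between -0.23 and -0.21. Whether equal column numbers mark a shared source is not given in the labels, so the libraries were not treated as paired. Deviations of same-numbered libraries correlated at -0.142, 0.0995 and -0.211. With 3 libraries a group, these values cannot show whether a source was shared. The replicate block called 0 genes and 0 members, narrowed the SE of Tfrc to 0.118 and of Kel to 0.130, and moved Cpox to -0.0500; limma-voom gave Cpox -0.0551.

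Over 14 members with full statistics, 24 estimates under alternatives had the opposite sign, and the cause was not tested. With each library left out in turn, log2 fold changes ran from -0.64 to 0.51 for Hba-a2, -0.62 to 0.51 for Hba-a1, -0.14 to 0.35 for Cpox, -0.63 to 0.10 for Slc25a37, -0.27 to 0.30 for Ank1, -0.33 to 0.10 for Ermap, -0.22 to 0.17 for Car2, -0.92 to 0.12 for Car1 and -0.69 to 0.29 for Trim10. Without both libraries numbered 1 they were 1.03 for Hba-a2, 1.03 for Hba-a1, 0.36 for Ank1, 0.0120 for Ermap, 0.15 for Car2 and 0.27 for Trim10, and Cpox was called at 0.35. Signs of Fech, Tfrc, Sptb, Kel and Hemgn did not change under any alternative run, but most of these estimates shrank without panobinostat library 1. They were then -0.0417 for Fech, -0.0415 for Tfrc, -0.103 for Kel and -0.00235 for Hemgn, while Sptb was at 0.307.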
